A study of Mus musculus with 2 samples.

Results

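Interleukins and chemokines are the secreted signals by which immune cells instruct and attract each other, and their receptors decide which cells can respond. Interleukin receptors are assembled from chains that are often shared between cytokines, whereas chemokine receptors are single-chain, G-protein-coupled receptors. In the colon, resident macrophages take part in this exchange on both sides: they secrete cytokines and chemokines and they respond to signals such as interleukin-10. Many of the genes lie in runs of related neighbours, among them the chemokine gene clusters and the cluster of interleukin-1 receptor family genes. This account covers the 138 protein-coding genes, of 21887 on the standard chromosomes, whose RefSeq symbol begins with Il, Ccl, Cxcl, Ccr or Cxcr and a digit, together with Cx3cl1. They comprise 75 ligand genes, 57 receptor genes, and 6 genes of antagonists, secreted binding proteins and enzymes (Il1rn, Il1f5, Il18bp, Il22ra2, Il4i1 and Il4i1b).

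The study compared acetylation of lysine 27 of histone H3 (H3K27ac), which marks promoters and enhancers in use, between macrophages sorted from the colon of untreated C57BL/6 mice of 2 genotypes. Tle4cKO mice carried floxed Tle4 alleles with Lyz2-Cre (Tle4f/f Lyz2-Cre), and WT mice carried Lyz2-Cre alone. Cre is expressed from the Lyz2 locus in myeloid cells generally, so that the deletion is not restricted to macrophages. The sort took CD64-positive cells that had low Ly6C and no Siglec-F. Cells of 4 male mice aged 11.1 weeks were pooled for each genotype, and each pool gave 1 CUT&Tag library, in which an antibody brings a DNA-cutting transposase to the marked chromatin.

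The deposited lists held 2350 Tle4cKO summits and 10474 WT summits on chromosomes 1 to 19, X and Y. A summit is the highest point of a called peak. Its score is the authors' value, read here as being on a −log10 scale. The median score was 4.05 in Tle4cKO and 4.47 in WT. With 1 library per genotype there was no test between the genotypes and no replicate check of any difference; read depth was unknown. A summit missing from one list was not called there and may still carry signal. In a pool of cells, fewer cells with the mark and less mark per cell cannot be told apart. Of 16 macrophage marker genes, 0 had a Tle4cKO summit in the gene or within 10 kb, and 9 (56.2%) had a WT summit. Over all genes these shares were 11.6% and 39.2%, and the marker intervals, 0.0 to 20.6% and 29.9 to 80.2%, hold them. The 9 markers included Fcgr1, which encodes CD64, with 5.49 at a gene end. The others, among them Lyz2, Itgam, C1qa, C1qb, C1qc and Cd163, had none in either list. The targeted gene gave no check of the labels, since Tle4 too had no summit within 10 kb in both lists. Tle4cKO and WT summits lay within 10 kb of 2 and 6 of 7 dendritic cell markers, beside the same 11.6% and 39.2% of all genes. The WT interval there, 42.1 to 99.6%, lay above the share of all genes. The counts were 0 and 2 of 7 T cell markers, 1 and 3 of 6 B and plasma cell markers, 0 and 1 of 7 epithelial markers and 0 and 0 of 6 neutrophil markers, all with intervals that hold the shares of all genes. The part of these differences in the results below was not tested.

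The promoters of 6 members with a summit near the transcription start are printed to show the sequence before that start. Each is the RefSeq sequence (GRCm38.p6, the assembly of mm10) of the 250 bases before the transcription start, 5′ to 3′ on the strand of the gene. Il6ra and Il2rg are shown because they alone, of the 106 members in the promoter table, had a summit within 1 kb of a transcription start in both libraries. Il3ra is shown for the highest score within 1 kb of a start, and Ccl3 and Cxcl2 as chemokine ligands marked in WT. Il6st is shown for a summit exactly at the far edge of its printed window. All other summits within 1 kb of these starts lie outside the printed windows, downstream of the start or more than 250 bases upstream. Capitals mark a match on either strand to one of the motifs described after the sequences.
Il6ra, chr3:89913197-89913446, minus strand: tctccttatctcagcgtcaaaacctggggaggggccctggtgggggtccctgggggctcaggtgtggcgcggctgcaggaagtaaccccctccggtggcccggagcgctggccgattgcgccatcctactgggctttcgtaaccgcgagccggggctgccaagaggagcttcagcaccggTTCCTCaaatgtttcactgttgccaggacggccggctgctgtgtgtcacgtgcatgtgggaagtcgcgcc
Il2rg, chrX:101268256-101268505, minus strand: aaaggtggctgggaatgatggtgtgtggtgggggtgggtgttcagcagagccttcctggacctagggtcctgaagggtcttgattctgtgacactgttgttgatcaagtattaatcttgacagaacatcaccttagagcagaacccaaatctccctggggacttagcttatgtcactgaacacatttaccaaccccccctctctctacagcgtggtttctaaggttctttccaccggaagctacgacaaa
Il3ra, chr14:14346245-14346494, plus strand: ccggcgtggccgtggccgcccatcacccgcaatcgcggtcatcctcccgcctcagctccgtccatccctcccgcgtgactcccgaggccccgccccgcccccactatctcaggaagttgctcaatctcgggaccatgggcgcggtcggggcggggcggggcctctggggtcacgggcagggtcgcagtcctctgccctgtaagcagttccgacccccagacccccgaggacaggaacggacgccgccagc
Il6st, chr13:112463820-112464069, plus strand: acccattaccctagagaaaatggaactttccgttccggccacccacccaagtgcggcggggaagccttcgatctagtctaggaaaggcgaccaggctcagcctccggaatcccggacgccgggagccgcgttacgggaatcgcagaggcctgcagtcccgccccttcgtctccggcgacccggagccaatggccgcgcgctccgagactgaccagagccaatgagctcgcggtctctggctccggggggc
Ccl3, chr11:83649379-83649628, minus strand: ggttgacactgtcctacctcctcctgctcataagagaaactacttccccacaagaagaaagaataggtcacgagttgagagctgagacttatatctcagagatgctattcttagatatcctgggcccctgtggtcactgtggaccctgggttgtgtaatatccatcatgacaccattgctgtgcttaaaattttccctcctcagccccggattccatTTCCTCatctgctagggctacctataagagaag
Cxcl2, chr5:90903649-90903898, plus strand: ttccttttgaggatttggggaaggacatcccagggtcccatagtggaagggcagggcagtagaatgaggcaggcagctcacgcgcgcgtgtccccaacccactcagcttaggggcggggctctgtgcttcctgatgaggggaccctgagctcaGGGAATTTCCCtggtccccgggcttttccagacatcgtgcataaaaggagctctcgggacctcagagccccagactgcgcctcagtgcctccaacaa

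The motifs searched were the kappaB consensus, which NF-kB binds, TGANTCA, which AP-1 binds, GAGGAA, the core of sites of the myeloid factor PU.1, TATAAA, and TTCNNNGAA, which STAT factors bind. Both strands were read; the kappaB, AP-1 and STAT patterns can match the same bases on both. In the Cxcl2 promoter the capitals are a pair of kappaB matches that overlap, from 97 to 88 and from 96 to 87 bases before the start. In Ccl3 and Il6ra they are GAGGAA on the opposite strand, from 33 to 28 and from 70 to 65 bases before the start. The Il2rg, Il3ra and Il6st windows held none of these letters. Over all 21263 windows of this length before the starts of protein-coding genes, 7.91% held the kappaB consensus, 22.2% GAGGAA, 6.13% TGANTCA, 11.6% TATAAA and 6.58% TTCNNNGAA. The windows differed in base composition: Il3ra had 72.4% G or C and 27 CG dinucleotides, Il6st 66.0% and 26, and Il6ra 65.2% and 18, whereas Il2rg had 49.2% and 3 and Ccl3 46.8% and 2. A match is a description of the sequence and does not show that a factor bound there.

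In the gene or within 10 kb, 14 of the 138 members had a Tle4cKO summit and 43 had a WT summit. That was 10.1% of members in Tle4cKO (exact 95% interval 5.66 to 16.4%), against 11.6% of all protein-coding genes, and 31.2% in WT (23.6 to 39.6%), against 39.2%. In both libraries the members' share was thus close to or below that of genes in general. Both libraries marked 12 members, or 8.7%, against 10.8% of all genes. Tle4cKO alone marked 2 members, against 0.832% of all genes, WT alone marked 31, against 28.4%, and neither marked 93. Of the members with a WT summit, 27.9% (15.3 to 43.7%) also had a Tle4cKO summit, where 27.6% of all genes did. At gene ends, that is within 1 kb of either outer end, 4 members (2.9%) had a Tle4cKO summit, against 6.19% of all genes, and 19 (13.8%) had a WT summit, against 22.6%. Elsewhere in the gene, 5 members had a Tle4cKO summit and 8 had a WT summit, or 3.62% and 5.8%, where 3.12% and 12.0% of all genes did. The members had a median length of 8782.5 bp, against 17169 bp for all protein-coding genes, so their windows were usually the shorter ones. The part of gene length in these shares was not tested. Among the 2350 highest-scoring WT summits, equal in number to the Tle4cKO list, 9 members (6.52%) had a WT summit within 10 kb, against 12.8% of all genes.

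Receptor genes were marked more often than ligand genes in both libraries, although this was not tested. In Tle4cKO, 11 of 57 receptor genes (19.3%, interval 10.0 to 31.9%) and 3 of 75 ligand genes (4.0%, 0.833 to 11.2%) had a summit within 10 kb. In WT, 24 receptor genes (42.1%, 29.1 to 55.9%) and 15 ligand genes (20.0%, 11.6 to 30.8%) did. In this window receptor genes thus stood near or above the share of all genes in each library, and ligand genes below it. At gene ends receptor genes stood slightly below it, at 5.26% in Tle4cKO and 21.1% in WT, against 6.19% and 22.6% of all genes. The receptor intervals, 1.1 to 14.6% and 11.4 to 33.9%, hold these shares. Ligand genes stood there at 1.33% (0.0338 to 7.21%) and 8.0% (2.99 to 16.6%). Of the genes with a WT summit within 10 kb, 10 of 24 receptors (41.7%, 22.1 to 63.4%) and 2 of 15 ligands also had a Tle4cKO summit within 10 kb, against 27.6% of all genes. The receptor genes had a median length of 20551 bp, the ligand genes of 5242 bp and all protein-coding genes of 17169 bp, so that the window of a receptor gene was usually the longer one. Genes in one run can share a summit, so that the intervals, which count genes as independent, are too narrow.

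**Figure D1:**
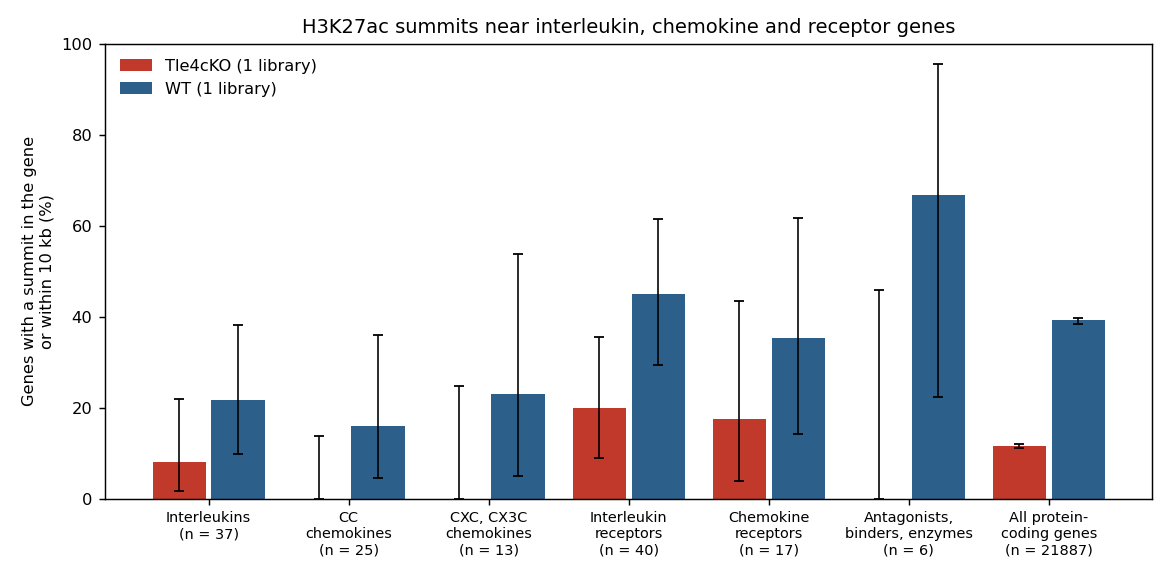
Percentage of genes of each family with an H3K27ac summit in the gene or within 10 kb (y axis), in the Tle4cKO library (red) and the WT library (blue); error bars are exact 95% intervals for counting error only, and n is the number of genes. Interleukin receptors reached 20.0% in Tle4cKO and 45.0% in WT, while neither chemokine ligand family had any gene with a Tle4cKO summit.

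Among the interleukin receptors, 8 of 40 (20.0%, interval 9.05 to 35.6%) had a Tle4cKO summit within 10 kb, against 11.6% of all genes, and 18 (45.0%, 29.3 to 61.5%) had a WT summit, against 39.2%. Each of these intervals holds the share of all genes. Gene-end summits in both libraries were found at 3 of these receptors (7.5%, interval 1.57 to 20.4%), against 5.60% of all genes. Il6ra encodes the ligand-binding chain of the interleukin-6 receptor; its Tle4cKO summit, with a score of 2.85, lay at position 89912904 of chromosome 3, 292 bp downstream of the transcription start, and its WT summit, with 6.45, lay 174 bp away at 89912730. Il2rg encodes the common gamma chain shared by several interleukin receptors; its Tle4cKO summit (2.21) lay 383 bp upstream of the start at 101268638 of the X chromosome, and its WT summit (3.49) 228 bp downstream at 101268027. At 611 bp apart, these did not count as shared, for which a distance of at most 500 bp was required. A second Il2rg pair, 20 bp apart with scores of 2.34 in Tle4cKO and 4.14 in WT, lay beyond the gene and nearer to Foxo4. Il17rc, a chain of the receptor for interleukin-17, had summits at its far end, 11513 bp and more downstream of its start. The Tle4cKO score there was 2.49, and the WT scores were 2.78 and 4.25, the second of them nearer to the neighbouring gene Creld1.

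Of the 11 interleukin receptor genes with a WT gene-end summit, 3 also had a gene-end summit in Tle4cKO. That was 27.3% (interval 6.02 to 61.0%), where 24.7% of all genes with a WT gene-end summit did. A WT gene-end summit without one in Tle4cKO was thus not particular to these receptors. The remaining interleukin receptor genes with a gene-end summit had one in WT and none in Tle4cKO. Il3ra, the alpha chain of the interleukin-3 receptor, scored highest among them, with 8.38 at position 14345904 of chromosome 14, 591 bp upstream of the transcription start nearest to it. Il1rap, the accessory chain of the receptors for interleukin-1 and interleukin-33, followed with 6.58 at 26581526 of chromosome 16, 179 bp upstream. Il6st encodes gp130, the signalling chain of the interleukin-6 family, and scored 5.58 at 112463820 of chromosome 13, 250 bp upstream. These 3 genes had no Tle4cKO summit within 10 kb: the nearest one to the WT summit lay 51263 bp away for Il3ra, 807428 bp away for Il1rap and 50062 bp away for Il6st. Il11ra1, a receptor chain for interleukin-11, scored 4.32 at a point 74 bp upstream. Il18rap, the accessory chain for interleukin-18, scored 4.28 at 343 bp upstream, and Il15ra, which binds interleukin-15, scored 2.93 at 168 bp upstream. Il1rl1, which encodes the interleukin-33 receptor ST2, scored 3.07 at a point 182 bp outside its outer start and 24888 bp from the nearest start in the promoter table. Il10rb, a chain of the interleukin-10 receptor, had 3.08 at a gene end, 3.32 inside the gene and 4.89 outside, the last nearer to Ifnar2. Il11ra1 has a near copy, Il11ra2, which was listed with no summit within 10 kb; how reads were divided between such copies is not given in the sources used here.

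**Figure D2:**
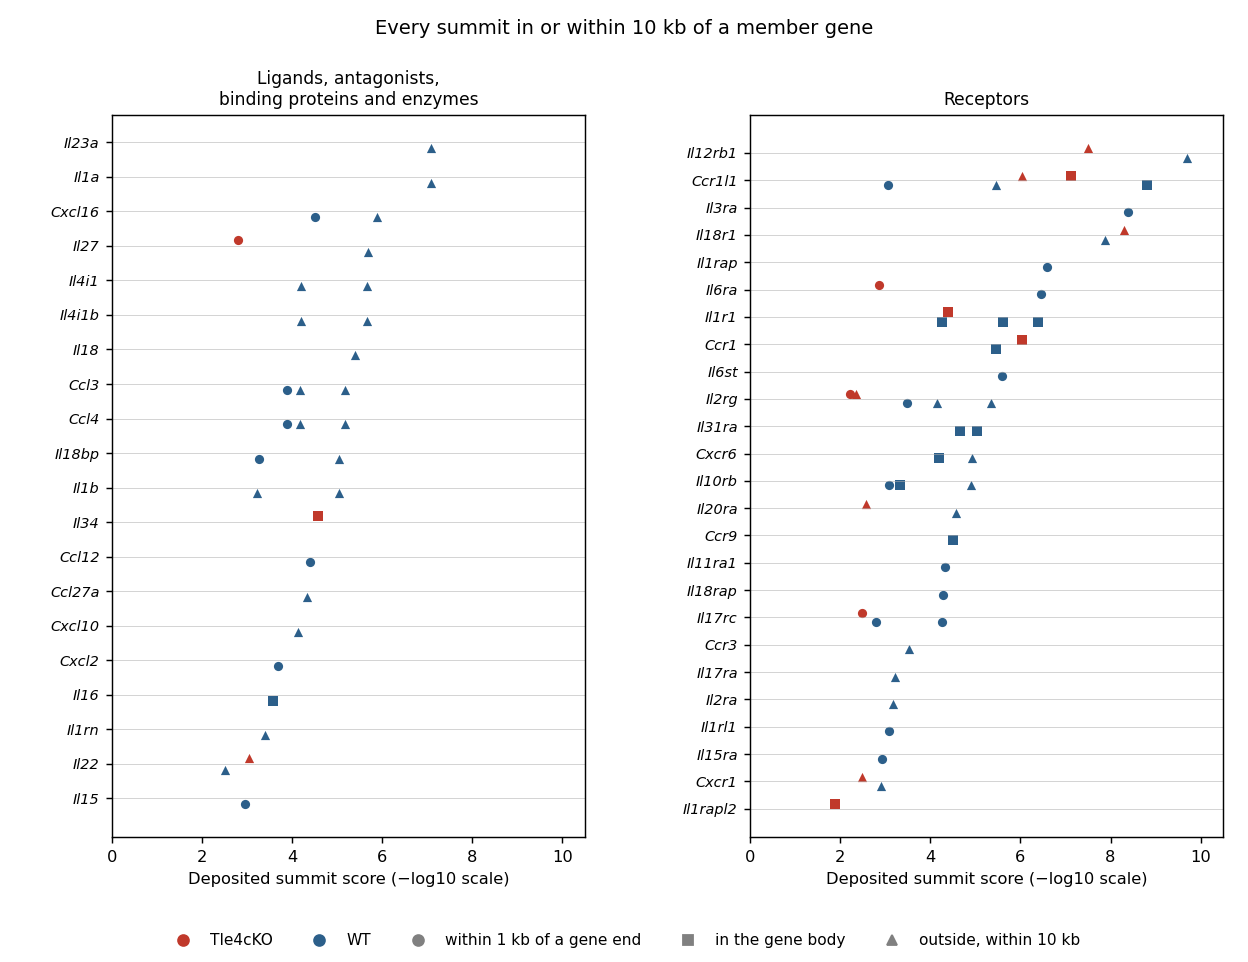
Deposited score, read as a −log10 value (x axis), of every summit in or within 10 kb of a member gene. Tle4cKO summits are in red above WT summits in blue in each row. Circles lie within 1 kb of a gene end, squares in the gene body and triangles outside. Tle4cKO summits appear at 3 of the ligand genes and 11 of the receptor genes, and 1 summit can stand in the rows of several neighbouring genes.

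The run of interleukin-1 receptor family genes on chromosome 1 (Il1r2, Il1r1, Il1rl2, Il1rl1, Il18r1 and Il18rap; positions 40084692 to 40551707) held 2 Tle4cKO summits and 6 WT summits, counted to 10 kb beyond its ends. Both Tle4cKO summits had a WT partner. Inside Il1r1, the signalling receptor for interleukin-1, the Tle4cKO summit scored 4.38 at 40294924, and the WT summit 45 bp away scored 5.61. Just beyond the end of Il18r1, the ligand-binding chain for interleukin-18, the Tle4cKO summit scored 8.3 at 40502068, and the WT summit 115 bp away scored 7.87. The Tle4cKO score was the highest of any Tle4cKO summit near a member. WT had 2 further summits in Il1r1 with scores of 4.25 and 6.4, besides those of Il1rl1 and Il18rap. Il1r2, which encodes the decoy receptor for interleukin-1, and Il1rl2, the receptor for interleukin-36, lay over 10 kb from any summit of both lists.

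The other interleukin receptors had summits in gene bodies or outside the gene. Il12rb1, a chain of the receptors for interleukin-12 and interleukin-23, had scores of 7.5 in Tle4cKO and 9.71 in WT, 200 bp apart. These lay 9910 and 9710 bp beyond the gene, at the edge of the window, and nearer to the neighbour Arrdc2. Il20ra, a chain for interleukin-20, had summits 60 bp apart with 2.57 in Tle4cKO and 4.57 in WT, about 6 kb upstream of the gene. Il1rapl2, an X-linked relative of the accessory chain known for its expression in the nervous system, had a Tle4cKO summit alone (1.89) inside a gene of 1278324 bp. Il31ra, a receptor chain for interleukin-31, had 2 WT summits in its body (4.65 and 5.04). Il2ra, the alpha chain of the interleukin-2 receptor (3.17), and Il17ra, a receptor chain for interleukin-17 (3.22, nearer to Kdm5a), had a WT summit outside the gene. Il10ra, the ligand-binding chain for interleukin-10, had no summit within 10 kb: the nearest lay 333139 bp from the gene in Tle4cKO and 18460 bp in WT. For Il4ra, the receptor chain for interleukin-4 and interleukin-13, these distances were 620862 and 25338 bp, and for Il7r, the interleukin-7 receptor chain, 365570 and 26021 bp.

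Among the chemokine receptors, 3 of 17 (17.6%, interval 3.8 to 43.4%) had a Tle4cKO summit within 10 kb, against 11.6% of all genes, and 6 (35.3%, 14.2 to 61.7%) had a WT summit, against 39.2%. Both intervals hold the share of all genes. Both libraries marked the same places in Ccr1, a receptor of inflammatory CC chemokines, and in its neighbour Ccr1l1. In Ccr1 the Tle4cKO summit scored 6.04 at position 123967180 of chromosome 9 and the WT summit 5.45 at the adjoining base, 1512 and 1511 bp downstream of the transcription start. In Ccr1l1 the Tle4cKO summit scored 7.12 at 123981102 and the WT summit 8.82, 141 bp away. A further WT summit (3.05) lay 222 bp downstream of the Ccr1l1 start. Ccr1 and Ccr1l1 are related genes, and the mapping of reads shared between them is not given in the sources used here. Cxcr1, a receptor for neutrophil-attracting chemokines, had summits 97 bp apart with 2.49 in Tle4cKO and 2.91 in WT, about 6 kb upstream of the gene. Ccr9, the receptor for the gut chemokine Ccl25, had a WT summit of 4.49 in its body. Cxcr6, the receptor for Cxcl16, had a WT summit of 4.19 in its body and one of 4.93 nearer to Fyco1, the gene around it. Ccr3, the eotaxin receptor, had a WT summit of 3.53 beyond its end.

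The run of chemokine receptor genes on chromosome 9 from Ccr9 to Ccr2 (123767211 to 124109140) held 5 Tle4cKO summits and 12 WT summits, counted to 10 kb beyond its ends. The Tle4cKO summit with the highest score there, 8.59 at position 123923943, lay 38183 bp from the nearest gene, Ccr1, outside the window of any member. A WT summit of 6.46 lay 20 bp away from it and another of 5.21 was 725 bp away. At the end of Xcr1, a chemokine receptor of dendritic cells that the symbol rule does not take, and of Fyco1, the Tle4cKO summit scored 4.06 and the WT summit 3.58, 11 bp apart. At the other end of the run, Ccr2, the receptor by which monocytes follow Ccl2, was without a summit within 10 kb in both lists. The nearest ones lay 120816 bp from Ccr2 in Tle4cKO and 64830 bp in WT. The chemokine receptors outside the run with none in either library included Cxcr2, Cxcr3, Cxcr4, Cxcr5, Ccr4, Ccr6, Ccr7, Ccr8 and Ccr10.

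**Figure D3:**
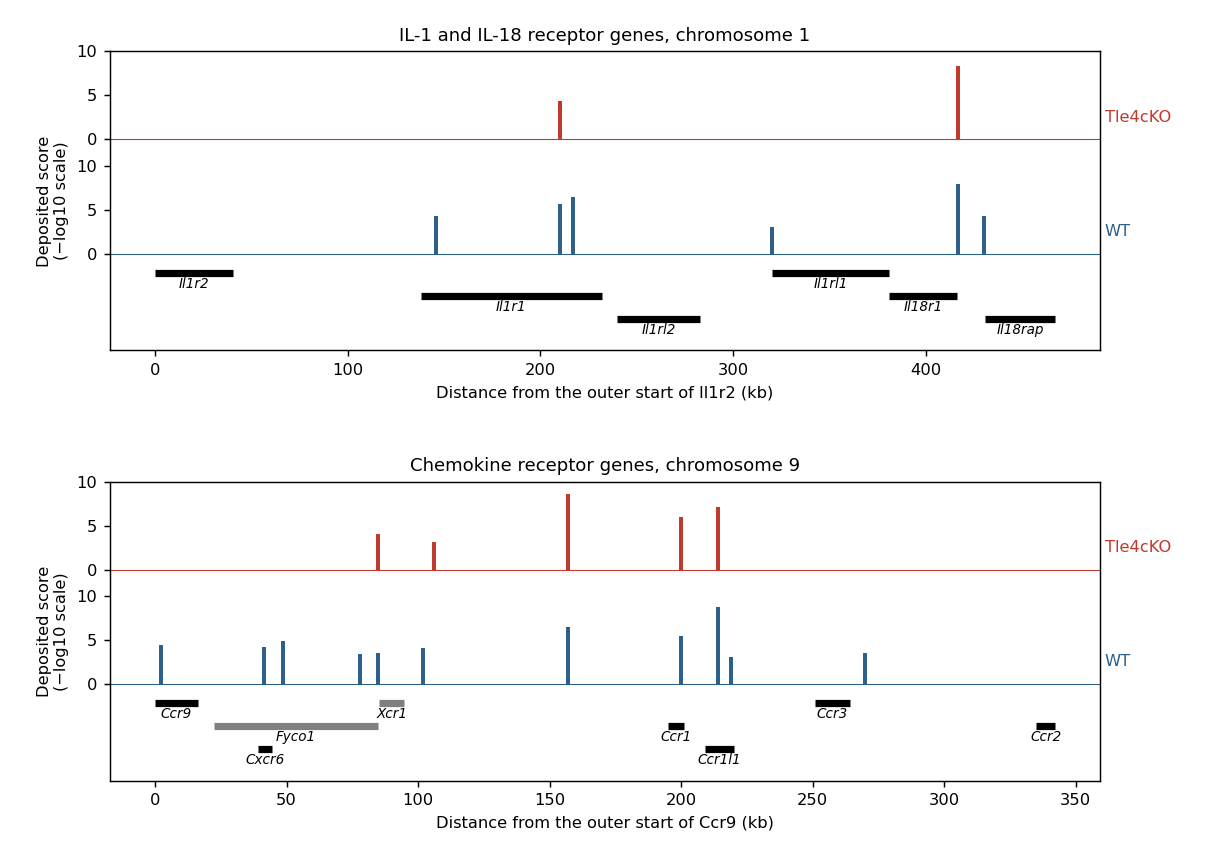
Summits along the interleukin-1 receptor run (top) and the chemokine receptor run (bottom). The x axis is the distance in kb from the outer start of the first gene. Bar height is the deposited score, read as a −log10 value, with the Tle4cKO track above the WT track. Black bars are member genes and grey bars the neighbours Fyco1 and Xcr1; the Tle4cKO bars at Il1r1, Il18r1, Ccr1 and Ccr1l1 stand over WT bars, and none stands over Ccr2.

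Of the 25 CC and 13 CXC or CX3C chemokine genes, 0 had a Tle4cKO summit within 10 kb, while 4 (16.0%) and 3 (23.1%) had a WT summit, against 39.2% of all genes. The exact upper limits on the Tle4cKO shares were 13.7% and 24.7%, both above the 11.6% of all genes. Ccl3, which encodes the inflammatory chemokine MIP-1 alpha, had a WT summit of 3.89 at position 83649101 of chromosome 11, 277 bp downstream of its start. WT summits of 5.16 and 4.16 lay 7342 and 8749 bp beyond the gene. The annotated Ccl4 gene overlaps Ccl3 and takes in the same 3 summits, which are nearest to Ccl3. Ccl12, a monocyte-attracting chemokine of the mouse, had a WT summit of 4.4 at a point 379 bp upstream of its start. Cxcl2, a neutrophil attractant, had one of 3.67 at 90903591 of chromosome 5, 308 bp upstream, beyond the printed window. Cxcl16, the ligand of Cxcr6, had 4.5 at a gene end and 5.87 outside, the second nearer to Med11. The WT summits within 10 kb of Cxcl10 (4.12) and Ccl27a (4.32) were nearest to the neighbours Art3 and Il11ra1.

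Most chemokine genes lay over 10 kb from any summit of both lists. On chromosome 11, the genes from Ccl2 to Ccl1 (82035577 to 82179812) held 0 Tle4cKO summits and 1 WT summit, that of Ccl12, and those from Ccl5 to Ccl4 (83525778 to 83664683) held 0 and 4. Ccl2, the main monocyte chemokine, lay 709716 bp from the nearest Tle4cKO summit and 61913 bp from the nearest WT summit. The genes from Cxcl5 to Cxcl2 on chromosome 5 held 0 and 1 summits, and those from Ccl22 to Ccl17 on chromosome 8, with Cx3cl1, the ligand of Cx3cr1, between them, held none in either library. Cxcl1 lay 10470 bp from the nearest WT summit, just outside the window, and the receptor gene Il17re lay 12210 bp from the nearest Tle4cKO summit. Ccl21c could not be measured, since its listed position (59769 to 60899) lies 3422275 bp before the first WT summit of chromosome 4. Ccl21c was nevertheless kept in all counts as a ligand gene without a summit. It and the similar Ccl21a, Ccl21b and Ccl21d had no summit in either list.

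Among the 37 interleukin genes, 3 (8.11%, interval 1.7 to 21.9%) had a Tle4cKO summit within 10 kb, against 11.6% of all genes, and 8 (21.6%, 9.83 to 38.2%) had a WT summit, against 39.2%. Il22, which acts on epithelial cells, had summits 52 bp apart in both, with 3.03 in Tle4cKO and 2.5 in WT, about 7 kb beyond the gene. Il27, which encodes a subunit of a heterodimeric cytokine of antigen-presenting cells, had a Tle4cKO summit of 2.8 at a gene end (126594681 of chromosome 7). Its WT summit of 5.69 lay 9365 bp away, outside the gene and nearer to Apobr. Il34, the alternative ligand of the receptor for macrophage colony-stimulating factor, had a Tle4cKO summit of 4.56 in its body (110799152 of chromosome 8), with the nearest WT summit 47676 bp away. Il15, a cytokine for natural killer and memory T cells, had a WT summit of 2.95 at a gene end, and Il16 one of 3.58 in its body, 1448 bp from a transcription start. Il1b had WT summits of 5.04 and 3.21 on either side of the gene, 3844 and 2395 bp outside it. The WT summits near Il1a (7.08), Il23a (7.09) and Il18 (5.4) were nearest to the neighbours Ckap2l, Pan2 and Sdhd. Of the 15 ligand genes with a WT summit, Il22 and Il27 also had one in Tle4cKO, or 13.3% (1.66 to 40.5%), an interval that holds the 27.6% of all genes.

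Other cytokine genes known for their role in macrophages were not marked within 10 kb in either list. Il10, the main anti-inflammatory cytokine of gut macrophages, lay 655072 bp from the nearest Tle4cKO summit and 72129 bp from the nearest WT summit. The run from Il24 to Il10 held none in either library. For Il6 the distances were 134810 and 20392 bp, and for Il12b, the subunit shared by interleukin-12 and interleukin-23, 1713090 and 17790 bp. The run from Il4 to Il5 held 1 WT summit (5.19), in Rad50. Over all members, the median distance from the gene to the nearest summit was 144.0 kb in Tle4cKO and 35.9 kb in WT, where over all protein-coding genes it was 219.0 and 27.1 kb. For receptor genes it was 70.7 and 19.0 kb, and for ligand genes 244.0 and 51.3 kb.

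Of the 6 antagonist, binding protein and enzyme genes, 0 had a Tle4cKO summit within 10 kb (upper limit 45.9%), against 11.6% of all genes, and 4 had a WT summit (66.7%, interval 22.3 to 95.7%), against 39.2%. With so few genes, both intervals hold the share of all genes. Il18bp, which encodes the soluble inhibitor of interleukin-18, had a WT summit of 3.25 at a point 751 bp downstream of its start and one of 5.04 nearer to Rnf121. Il1rn, the interleukin-1 receptor antagonist, had a WT summit of 3.39 at a point 1208 bp upstream. Il4i1, an amino acid oxidase induced by interleukin-4, and the overlapping Il4i1b shared WT summits of 5.66 and 4.19, both nearest to other genes.

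Counted as summits, 15 Tle4cKO and 56 WT summits lay in or within 10 kb of the members. For 13 of the Tle4cKO and 40 of the WT summits a member was the nearest protein-coding gene. A WT partner within 500 bp was called for 11 of the Tle4cKO summits (73.3%, interval 44.9 to 92.2%), against 81.3% of all Tle4cKO summits within 10 kb of any protein-coding gene. Conversely, a Tle4cKO partner was called for 11 of the WT summits (19.6%, 10.2 to 32.4%), against 18.4%. Partners lay 1 to 219 bp apart, with a median of 97 bp. The members' shares therefore lay near those of summits in general. Their scores were modest: the median was 2.85 in Tle4cKO, from 1.89 to 8.3, where summits near any gene had 4.03, and 4.36 in WT, from 2.5 to 9.71, where they had 4.54. The median score of the WT summits was 5.45 where a Tle4cKO partner was called and 4.28 where none was. For WT summits within 10 kb of any protein-coding gene these medians were 6.54 and 4.28, so the split is not particular to the members.

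Around transcription starts the counts were smaller. Of the 106 members in the promoter table, 2 (1.89%), Il6ra and Il2rg, had a Tle4cKO summit within 1 kb of a start, against 6.92% of all protein-coding genes in that table. In WT 13 (12.3%) did, against 25.0%: the receptor genes Il3ra, Il1rap, Il6ra, Il6st, Il11ra1, Il18rap, Il2rg, Ccr1l1 and Il15ra, the ligand genes Ccl12, Ccl3 and Cxcl2, and Il18bp. By role, 4.26% of receptor genes in Tle4cKO and 19.1% in WT had a summit within 1 kb of a start, and 0.0% and 5.56% of ligand genes. Both roles thus stood below all genes here, but the receptor intervals, 0.52 to 14.5% and 9.15 to 33.3%, hold the shares of all genes. The ligand intervals, 0.0 to 6.6% and 1.16 to 15.4%, lie below those shares. The other Tle4cKO summits near members with a listed start lay farther from it, up to the 36062 bp of Il18r1, apart from that of Il1rapl2, 942410 bp away in its very long gene. The Ccr1 summits lay outside this window, and the Il17rc summits were at the far end of the gene.

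**Figure D4:**
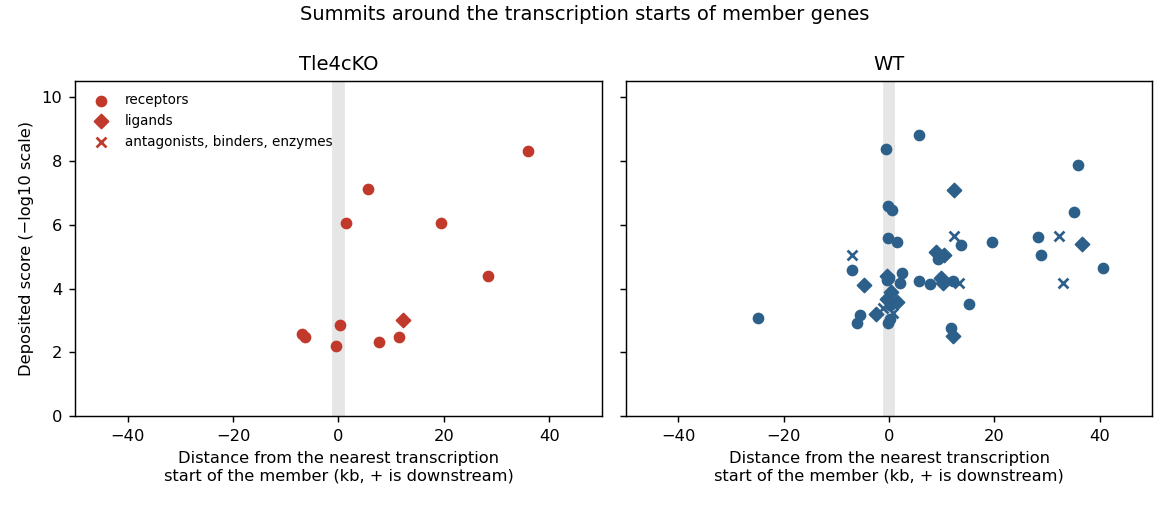
Distance in kb from each summit to the nearest listed transcription start of its member gene (x axis, positive downstream, shown to 50 kb). The y axis is the deposited score, read as a −log10 value, for Tle4cKO (left) and WT (right). Symbols give the role of the gene, the grey band is 1 kb either side of the start, and 1 summit can be plotted for several genes. Only Il6ra and Il2rg have Tle4cKO points in the band, while 13 members have WT points there.

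Genes that act with these receptors but do not carry their names were examined in the same windows. Of 63 further receptors, cytokines and signalling genes, 9 (14.3%, interval 6.75 to 25.4%) had a Tle4cKO summit within 10 kb, against 11.6% of all genes. A WT summit was found for 34 (54.0%, 40.9 to 66.6%), against 39.2%, so that the WT interval lay above the share of all genes. Each of the 9 had both. The list was chosen with earlier results of these data known. At gene ends 6 (9.52%, interval 3.58 to 19.6%) had a Tle4cKO summit, against 6.19% of all genes, and 16 (25.4%, 15.3 to 37.9%) a WT summit, against 22.6%. Traf6, the ubiquitin ligase of interleukin-1 receptor signalling, scored 5.77 in Tle4cKO and 5.22 in WT. Jak1, a kinase of many interleukin receptors, scored 5.48 and 7.11, Csf2ra, a receptor chain for GM-CSF, 5.24 and 7.51, and Gnai3, a G protein subunit, 4.51 and 6.0. Stat3, the main transcription factor downstream of interleukin-6 and interleukin-10, scored 3.07 and 4.75 and was chosen for its role after the values were seen. Irak4, a kinase of interleukin-1 receptor signalling (12.05), and Map3k7, which encodes the kinase TAK1 (6.31), had gene-end summits in WT and no summit within 10 kb in Tle4cKO. Cx3cr1, the fractalkine receptor of gut macrophages, was chosen in the same way; it had a gene-end score of 2.89 in WT and no Tle4cKO summit within 10 kb.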

How the data were processed

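H3K27ac CUT&Tag was measured in 1 Tle4cKO and 1 WT library. Per the submitters' processing notes, cutadapt 1.14, Bowtie2 2.2.5 and build mm10 were used; the sources used here name no peak caller, settings or control library. The authors deposited 1 summit list per library, with 1 score per peak. The deposited score was read as a −log10 p- or q-value, because its lowest value, 1.35, lies just above 1.3, the −log10 of 0.05. It grows with depth, which was unknown, so scores of the lists are given side by side without a comparison; the alternative with 1 score minimum for both lists carries this limit.

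The 2 Tle4cKO and 4 WT mitochondrial summits were left out. Positions are counted from 1. Genes came from RefSeq (GRCm38.p6); that table gives outer ends without strand, and a separate promoter table gave starts for 106 members. Windows were 1 kb around either gene end and 10 kb around the gene; a summit counted for every gene whose window held it. Summits at most 500 bp apart were called shared. Runs join members at most 200 kb apart, 3 or more together. Intervals are exact Clopper-Pearson 95% intervals for counting error only. No test between genotypes was possible. The members and lists were chosen with earlier results of these data known; 1 list gene, Trbc1, was not matched. Alternatives were other windows, sharing distances and gene assignments, a score minimum of 5, merged summits and a shorter WT list. Members with a summit could be named, in full for gene-end, gene-body and Tle4cKO summits. Python 3.11.15, pandas 2.3.3 and SciPy 1.17.1 were used, and the steps were tested on simulated data. A few genes are not reported here by name.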

Additional observations from a re-analysis of the deposited data

How the results depend on the processing

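No paired analysis was possible because each genotype has 1 pooled library. Of 60 recomputed values, 37 stayed within 1.5 times of the reported count or within its interval, among them all under a gene-end window of 500 bp or 2 kb, a gene window of 5 kb, merged summits, and sharing within 200 bp or 1 kb. With a gene window of 50 kb, 33 members had a Tle4cKO summit, 81 a WT summit and 30 both (23.9% and 58.7% in Tle4cKO and WT, against 22.9% and 59.6% of all genes), and 36 ligand and 40 receptor genes had a WT summit. Counting each summit for its nearest gene only, 8 ligand genes had a WT summit, and members stood at 9.42% in Tle4cKO and 23.2% in WT, against 8.41% and 29.7% of all genes. At a score of at least 5, the Tle4cKO and WT counts were 0 and 4 at gene ends, 2 and 4 in gene bodies and 4 and 22 within 10 kb, with 4 in both. Within 10 kb this was 2.9% and 15.9% of members, against 3.61% and 20.9% of all genes. In WT it was 8 ligand genes (10.7%) and 11 receptor genes (19.3%). With the WT list restricted to its 2350 highest scores, the WT counts were 3 at gene ends, 2 in gene bodies and 9 within 10 kb, with 5 in both and 44.4% of WT summits shared. The 9 were 2 ligand genes (2.67%) and 7 receptor genes (12.3%). The Tle4cKO counts of 4, 5 and 14 were then the higher ones. Gene-end and gene-body shares of all genes were not recomputed for the score minimum or the shorter list, so those counts stand without a background. Over all genes the order within 10 kb did not turn, with 11.6% in Tle4cKO and 12.8% in WT, against 10.1% and 6.52% of members. At transcription starts alone, 2 members had a Tle4cKO summit; the promoter table holds 106 of the 138 members. Receptor genes had a higher share than ligand genes in each library under each gene window, the score minimum, the shorter WT list and the nearest-gene count.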

Other observations

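The 128 listed promoter windows of the members, the 250 bases before each start, had a median of 50% G or C and 3 CG dinucleotides, where all 21263 windows had 55.6% and 10. In the windows of the 13 members with a WT summit within 1 kb of a start, the medians were 57.2% and 4. GAGGAA was found in 4 of these 13 (Ccl12, Ccl3, Il18rap and Il6ra), in 32.0% of member windows and in 22.2% of all windows. TGANTCA was found in 1 of the 13, Il15ra, in 15.6% of member windows and in 6.13% of all. TATAAA was found in 2 of the 13, in 19.5% of member windows and in 11.6% of all. For the kappaB consensus the values were 1 of the 13, 12.5% and 7.91%, and for TTCNNNGAA 1 of the 13, 9.38% and 6.58%. Members and summits were not compared by these letters with any test.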
